A study of Mus musculus with 12 samples.

Results

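The genes described here are 10 of the 46983 genes counted in the left ventricle (LV) of adult mouse offspring: the superoxide dismutases Sod1, Sod2 and Sod3, the peroxide-removing enzymes Cat, Gpx1, Gpx3 and Gpx4, the inducible enzymes Hmox1 and Nqo1, and Txnip. They were chosen by name, as antioxidant enzymes together with the inhibitor of thioredoxin, and were found in the count files by their Ensembl identifiers. The choice was made with earlier results of these data known. The study had already listed Txnip as down-regulated in Wt offspring of diabetic pregnancy. All 10 passed the filter on low counts. Txnip varied most among them. Its mean level was 304.0 CPM (read counts scaled to a common library total) in Wt offspring of non-diabetic pregnancy, 204.1 in Wt offspring of diabetic pregnancy, 213.6 in Hif1a+/- offspring of non-diabetic pregnancy and 372.7 in Hif1a+/- offspring of diabetic pregnancy. The difference between diabetic and non-diabetic pregnancy therefore pointed down in Wt and up in Hif1a+/- LVs. Gpx1 was higher and Cat was lower in diabetes-exposed Hif1a+/- LVs than in unexposed Hif1a+/- LVs, by smaller amounts. None of these differences passed the adjusted threshold in edgeR's test, and DESeq2 called only Txnip.

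Wt FVB dams, made diabetic with streptozotocin or left non-diabetic, were mated with non-diabetic Hif1a+/- males, so each group consisted of offspring that were either Wt or heterozygous for a null allele of Hif1a in every cell. Offspring aged 12 weeks gave 3 LVs for each of 4 groups: Wt non-diabetic, Wt diabetic, Hif1a+/- non-diabetic and Hif1a+/- diabetic, where "diabetic" always refers to the pregnancy and not to the animal sequenced. The 3 animals of a group came from several litters. The animal number in each title serves as the replicate name.

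Superoxide dismutases turn superoxide, a by-product of respiration and of oxidases, into hydrogen peroxide. Catalase and the glutathione peroxidases remove the peroxide, the latter with glutathione, and the thioredoxin system reduces peroxiredoxins and oxidised proteins. Heart muscle has a dense mitochondrial network, and its antioxidant capacity rests largely on these enzymes. Txnip is an alpha-arrestin that binds reduced thioredoxin and limits glucose uptake, and its transcription is known to rise with intracellular glucose through the factors MondoA and ChREBP.

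Among the 8 genes with an entry in the RefSeq promoter table (build GRCm38.p6; 250 bases before to 50 bases after the start), Txnip was the only one that held CACGAG, the E-box variant of which its glucose-responsive element is known to be built, and it held the motif at 2 places, 85 and 74 bases before the start. Of all 32851 promoters of this length in the table, 6.47% held CACGAG on either strand. The table has no entry for Sod3 or Hmox1. The 250 bases before the Txnip start are shown because Txnip carried the largest differences, and those of Cat because Cat moved in the opposite direction in Hif1a+/- LVs. Capitals mark CACGAG, the hypoxia response element core (ACGTG or GCGTG) and the CCAAT box in Txnip, and the CCAAT box in Cat, on either strand.
Txnip, chr3:96557707-96557956, plus strand: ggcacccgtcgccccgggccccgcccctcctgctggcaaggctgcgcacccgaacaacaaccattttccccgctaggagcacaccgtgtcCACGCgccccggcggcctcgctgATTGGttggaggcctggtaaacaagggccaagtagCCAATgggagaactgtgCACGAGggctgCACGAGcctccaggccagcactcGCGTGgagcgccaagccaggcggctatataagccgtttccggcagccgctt
Cat, chr2:103485154-103485403, minus strand: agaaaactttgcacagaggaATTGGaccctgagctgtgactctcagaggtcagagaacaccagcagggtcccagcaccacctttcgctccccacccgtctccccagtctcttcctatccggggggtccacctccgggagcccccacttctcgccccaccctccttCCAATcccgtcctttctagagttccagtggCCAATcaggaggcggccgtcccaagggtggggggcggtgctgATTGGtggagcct
The hypoxia response element core, the short sequence to which HIF-1 binds, occurred at 2 places in the Txnip window and in 43.8% of all promoters. The Cat window held none, and 4 CCAAT boxes, a motif found in 37.4% of all promoters. The antioxidant response element core TGACNNNGC, through which NRF2 acts, occurred in the window of Sod1 alone, 56 bases before its start and overlapping a hypoxia response element core, against 12.4% of all promoters. No window of the 8 genes held the E-box CACGTG, against 7.15% of all promoters. These matches describe the letters only.

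The total count per library was between 16132442 and 39812939, and the lowest count of any of the 10 genes in any library was 240 (Hmox1). The labels give all animals as female, whereas the study gives them as male. Counts of Y-linked genes exceeded those of Xist in 11 of 12 libraries, and Hif1a+/- diabetic replicate 72 showed the opposite, with Xist at 158.4 CPM. The differences with diabetes in Hif1a+/- LVs of Sod3, Cat, Gpx1 and Txnip are given with and without it, as are other contrasts of Txnip. Most other results for exposed mutants, among them those of Gpx3, Gpx4, the markers and the related gene lists, include it and are given without such a check. Hif1a itself had 55.7, 57.0 and 71.8 CPM in Wt non-diabetic LVs and 89.4, 78.8 and 88.9 CPM in Hif1a+/- non-diabetic LVs, and thus was not lower in the mutants. These reads come from transcript 3′ ends, and the sources used here do not say which part of the gene the null allele lacks, so they do not check the genotype. Cardiomyocyte markers summed to between 68200 and 78410 CPM in all libraries, whereas red cell markers reached 7323 CPM in Wt non-diabetic replicate 25, 1771 CPM in Wt diabetic replicate 50 and at most 733.5 CPM elsewhere.

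Levels are CPM scaled by TMM factors and were not divided by transcript length, since 3′-seq reads come from the transcript end. On this scale the order of the 12-sample means was Sod2 (722.8 CPM), Gpx4 (581.8), Gpx3 (354.5), Cat (340.5), Txnip (273.6), Sod1 (243.9), Gpx1 (92.0), Nqo1 (76.5), Sod3 (46.0) and Hmox1 (17.5). The ranges of neighbours in this order overlapped except between Gpx4 and Gpx3, between Sod1 and Gpx1 and between Sod3 and Hmox1. The coefficient of variation over the 12 LVs was 34.3% for Txnip and between 8.42% (Cat) and 18.7% (Gpx1) for the 9 enzymes.

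**Figure D1:**
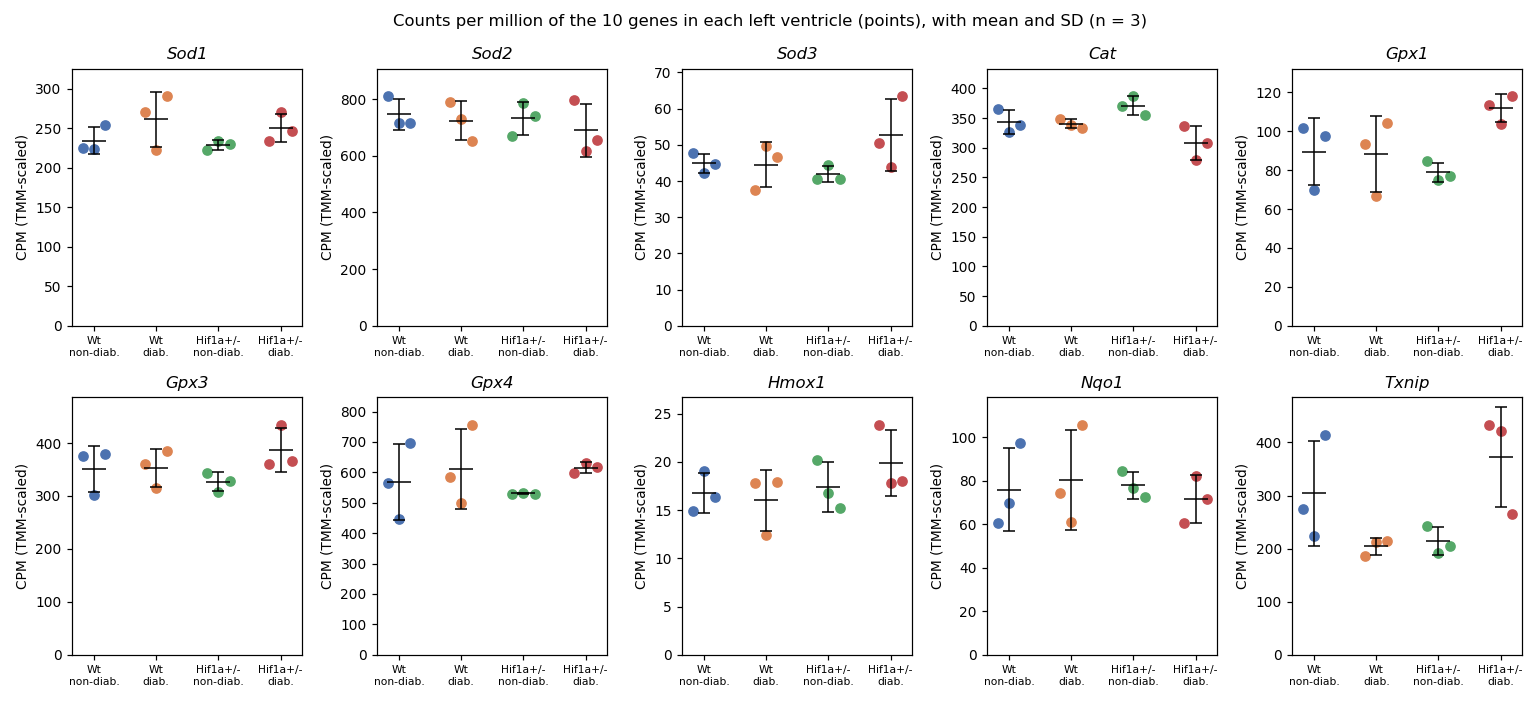
Each point is the level of a gene in 1 LV (y axis, TMM-scaled CPM from 0) by group (x axis), with the mean and SD of 3 LVs in black. Txnip is high in Wt non-diabetic replicate 89 (414.9 CPM) and in 2 of 3 Hif1a+/- diabetic LVs, Gpx1 is at least 103.9 CPM in all 3 Hif1a+/- diabetic LVs, and Sod2 and Nqo1 overlap in all groups.

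Sod1 (chr16:90220754-90226329, plus strand, GRCm38), the copper-zinc enzyme of the cytosol, had group means between 229.1 ± 6.33 CPM (SD, n = 3) in Hif1a+/- non-diabetic and 261.7 ± 34.8 CPM in Wt diabetic LVs. Its log2 difference with diabetes was 0.16 (SE 0.10) in Wt and 0.13 (SE 0.10) in Hif1a+/- LVs, and the groups overlapped in both. Sod2 (chr17:13006846-13040063, plus strand), the manganese enzyme of the mitochondrial matrix, was the most abundant of the 10 genes and had group means between 689.6 ± 94.1 and 746.1 ± 55.5 CPM. Its log2 difference with diabetes was −0.04 in Wt and −0.09 in Hif1a+/- LVs, and the 95% interval of the latter ran from −0.33 to 0.16.

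Sod3 (chr5:52363791-52371418, plus strand) encodes the secreted superoxide dismutase that binds the extracellular matrix. Its level was 47.7, 42.2 and 44.7 CPM in Wt non-diabetic (replicates 25, 42 and 89), 37.5, 49.6 and 46.6 CPM in Wt diabetic (50, 7 and 80), 40.5, 44.5 and 40.6 CPM in Hif1a+/- non-diabetic (14, 32 and 44) and 50.6, 44.0 and 63.5 CPM in Hif1a+/- diabetic LVs (66, 72 and 77). The highest value lay in Hif1a+/- diabetic replicate 77, and replicate 72 of that group fell below replicate 32 of the unexposed mutants. The log2 difference with diabetes in Hif1a+/- LVs was 0.33 (SE 0.13), with an unadjusted p of 0.0258 and an adjusted p of 0.371 in edgeR's quasi-likelihood test. It was 0.45 (unadjusted p = 0.00458) without replicate 72 and 0.18 (unadjusted p = 0.175) without replicate 77.

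Cat (chr2:103453849-103485160, minus strand), which encodes the peroxisomal catalase, had 365.5, 325.7 and 338.1 CPM in Wt non-diabetic and 348.4, 338.3 and 333.8 CPM in Wt diabetic LVs. Its level was 370.5, 386.9 and 354.6 CPM in Hif1a+/- non-diabetic and 337.4, 279.1 and 308.0 CPM in Hif1a+/- diabetic LVs. The Wt groups overlapped, whereas the 3 exposed mutants lay below the 3 unexposed mutants. The log2 difference with diabetes in Hif1a+/- LVs was −0.27 (95% interval −0.45 to −0.08), or 16.9% less, with an unadjusted p of 0.00771 and an adjusted p of 0.299 in edgeR's test. Without replicate 72, the lowest LV, it was −0.19 (unadjusted p = 0.0549). The difference between this contrast and that in Wt was −0.25 (unadjusted p = 0.0541), so that a change particular to the mutants was not shown.

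Gpx1 (chr9:108338903-108340343, plus strand) encodes the widespread glutathione peroxidase of cytosol and mitochondria. It had 101.6, 69.7 and 97.3 CPM in Wt non-diabetic and 93.4, 66.5 and 104.4 CPM in Wt diabetic LVs. In Hif1a+/- LVs it had 84.6, 75.1 and 76.7 CPM after non-diabetic and 113.2, 103.9 and 118.0 CPM after diabetic pregnancy. The 3 exposed mutants exceeded the unexposed mutants and the unexposed Wt LVs, but 1 exposed Wt LV (replicate 80) was slightly above exposed mutant replicate 72. Within Hif1a+/- LVs the difference was 1.42-fold (log2 0.50, SE 0.16), with an unadjusted p of 0.00733 and adjusted p values of 0.299 in edgeR's test and 0.133 in DESeq2. Without replicate 72 the log2 difference was 0.56 (unadjusted p = 0.00857). In Wt LVs the log2 difference was −0.02, and the interaction, which is the difference in Hif1a+/- minus that in Wt, was 0.53 (SE 0.22, unadjusted p = 0.0354, adjusted p = 0.998 by edgeR).

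Gpx3 (chr11:54902453-54910377, plus strand), the secreted plasma form, and Gpx4 (chr10:80047166-80056439, plus strand), the form that reduces lipid peroxides in membranes, did not pass an unadjusted p of 0.05 in any contrast of edgeR's test. In DESeq2 Gpx3 had an unadjusted p of 0.0401 for diabetes in Hif1a+/- LVs, with an adjusted p of 0.399. Gpx3 had a mean of 327.0 ± 18.1 CPM in unexposed and 386.5 ± 41.3 CPM in exposed Hif1a+/- LVs (SD, n = 3), and the 2 groups did not overlap (log2 0.24, 95% interval −0.001 to 0.483). Gpx4 had 530.9 ± 2.36 CPM and 615.8 ± 17.2 CPM in the same groups, which did not overlap either, but its Wt groups spread from 445.2 to 755.6 CPM and the interval of the contrast ran from −0.12 to 0.55.

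Hmox1 (chr8:75093621-75100589, plus strand), which degrades haem, and Nqo1 (chr8:107388225-107403206, minus strand), a quinone reductase, are classical targets of NRF2. Hmox1 was the least abundant of the 10, with group means between 16.1 ± 3.16 CPM in Wt diabetic and 19.9 ± 3.40 CPM in Hif1a+/- diabetic LVs. Its largest log2 difference was 0.32 (95% interval −0.04 to 0.69), for genotype after diabetic pregnancy. Nqo1 had group means between 71.6 ± 10.9 and 80.4 ± 22.9 CPM, and its intervals in the 4 pairwise contrasts of genotype and diabetes lay within −0.59 and 0.50. The 4 groups of each gene overlapped.

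Txnip (chr3:96557957-96561883, plus strand) had 274.0, 223.2 and 414.9 CPM in Wt non-diabetic LVs (replicates 25, 42 and 89) and 186.5, 211.8 and 214.1 CPM in Wt diabetic LVs (50, 7 and 80). In Hif1a+/- LVs it had 243.2, 191.9 and 205.6 CPM after non-diabetic pregnancy (14, 32 and 44) and 432.9, 420.7 and 264.4 CPM after diabetic pregnancy (66, 72 and 77). The exposed Wt LVs were thus all below the unexposed Wt LVs, and the exposed mutants all above both the unexposed mutants and the exposed Wt LVs. The gap was narrow at replicates 42 and 77, and the unexposed Wt range reached into that of the exposed mutants. The annotated antisense gene Gm15441 shares 606 exon bases with Txnip, and its count was between 1 and 9 reads per library. Whether counting used the strand is not given in the sources used here.

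In Wt LVs the log2 difference of Txnip with diabetes was −0.57 (95% interval −1.03 to −0.12), with an unadjusted p of 0.0177 and an adjusted p of 1 in edgeR's test. It rested on replicate 89, without which it was −0.28 (unadjusted p = 0.149). In Hif1a+/- LVs the difference was 1.74-fold (log2 0.80, 95% interval 0.34 to 1.26), with an unadjusted p of 0.00224 and an adjusted p of 0.256 in edgeR's test and an adjusted p of 0.0231 in DESeq2. The DESeq2 call was lost without any 1 of 5 LVs: Hif1a+/- diabetic replicate 66 (adjusted p = 0.165) or 72 (0.152), Hif1a+/- non-diabetic replicate 32 (0.264) or 44 (0.148), or Wt diabetic replicate 80 (0.107). The log2 difference was 0.72 without replicate 72.

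Between genotypes, Txnip in exposed LVs was 1.83-fold higher in Hif1a+/- than in Wt (log2 0.87, SE 0.21). The unadjusted p was 0.00126 and the adjusted p 0.797 in edgeR's test, and the adjusted p was 0.0533 in DESeq2. This DESeq2 call was also lost without any 1 of 5 LVs: Hif1a+/- diabetic replicate 66 (adjusted p = 0.361) or 72 (0.25), or Wt diabetic replicate 50 (0.911), 7 (0.102) or 80 (0.117). The log2 difference was 0.77 without replicate 72. In unexposed LVs Txnip was lower in Hif1a+/-, by a log2 difference of −0.51 (95% interval −0.97 to −0.05, unadjusted p = 0.0317, adjusted p = 1 by edgeR), with overlapping groups, and this too shrank without Wt replicate 89, to −0.22 (unadjusted p = 0.26). Exposed mutants and unexposed Wt LVs differed by 0.29 (95% interval −0.16 to 0.75). These pairwise contrasts share groups and are not independent of each other.

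The interaction of genotype and diabetes for Txnip was 1.38 on the log2 scale (SE 0.30, 95% interval 0.73 to 2.03). Its unadjusted p of 0.000486 ranked 5th of 14706 genes, the adjusted p was 0.998 in edgeR's test, and in DESeq2 it lay at the threshold (0.1) without passing it. With each LV left out in turn the interaction stayed between 1.09 (without Wt non-diabetic replicate 89) and 1.57 (without Hif1a+/- diabetic replicate 77), with unadjusted p values between 6.71e-05 and 0.00182. Without replicate 72 it was 1.29. Averaged over both genotypes the diabetes difference was 0.11 (95% interval −0.21 to 0.44), the mean of a negative and a positive difference.

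**Figure D2:**
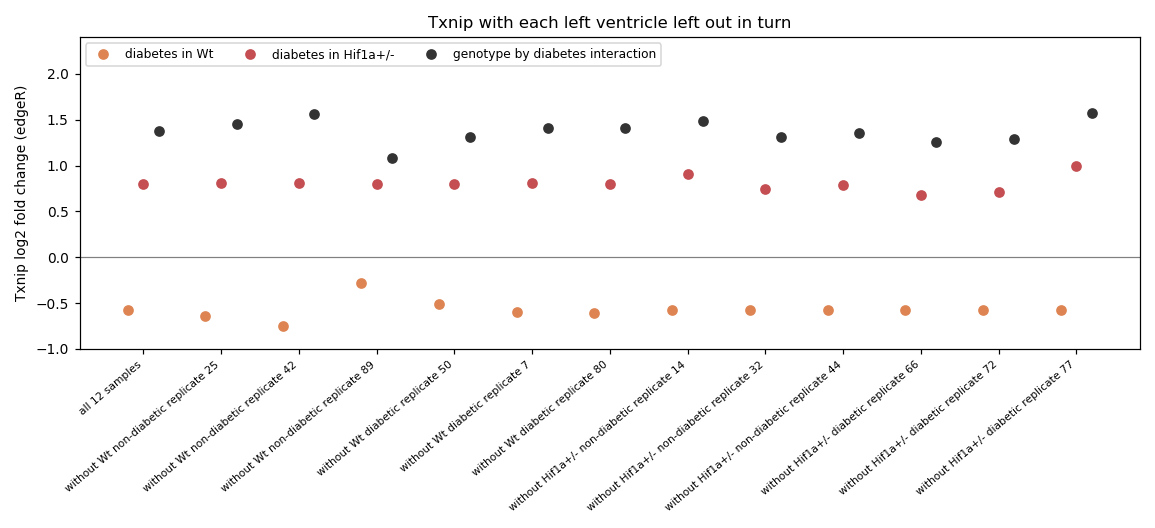
Log2 fold change of Txnip from edgeR (y axis) with all 12 LVs and with each LV left out in turn (x axis), for diabetes in Wt, diabetes in Hif1a+/- and their interaction. The Wt difference moves from −0.57 to −0.28 without replicate 89, and the interaction stays between 1.09 and 1.57.

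Counted over the 10 genes, edgeR's test called 0 at an adjusted p under 0.1 in each of 8 contrasts, against 0.0% of the 14706 genes tested. At an unadjusted p under 0.05 the count for diabetes in Wt LVs was 1 of 10 genes (Txnip, lower), against 2.78% of all genes, 1.17% being higher and 1.61% lower. For diabetes in Hif1a+/- LVs it was 4 of 10, with Sod3, Gpx1 and Txnip higher and Cat lower, against 12.0% of all genes, 5.72% being higher and 6.28% lower. The median log2 difference of the 10 genes in that contrast was 0.21. The count was 1 of 10 for genotype in non-diabetic LVs (Txnip, lower, against 0.959%) and 2 of 10 for genotype in diabetic LVs (Gpx1 and Txnip, both higher), against 5.35% of all genes, 2.96% being higher and 2.39% lower. It was 2 of 10 for the interaction (Gpx1 and Txnip, against 2.52%), 1 of 10 for diabetes averaged over genotypes (Cat, against 11.3%), 0 of 10 for genotype averaged over pregnancies (against 2.69%) and 0 of 10 for exposed mutants against unexposed Wt (against 8.85%).

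DESeq2 called Txnip for diabetes in Hif1a+/- LVs, where it called 1.44% of all genes with an adjusted p, and for genotype in diabetic LVs, where it called 0.155%. It called 0 of the 10 genes for diabetes in Wt (0.0148% of all genes), genotype in non-diabetic LVs (0.00369%), exposed mutants against unexposed Wt (0.453%), the interaction (0.0%), diabetes averaged over genotypes (1.46%) and genotype averaged over pregnancies (0.0259%).

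**Figure D3:**
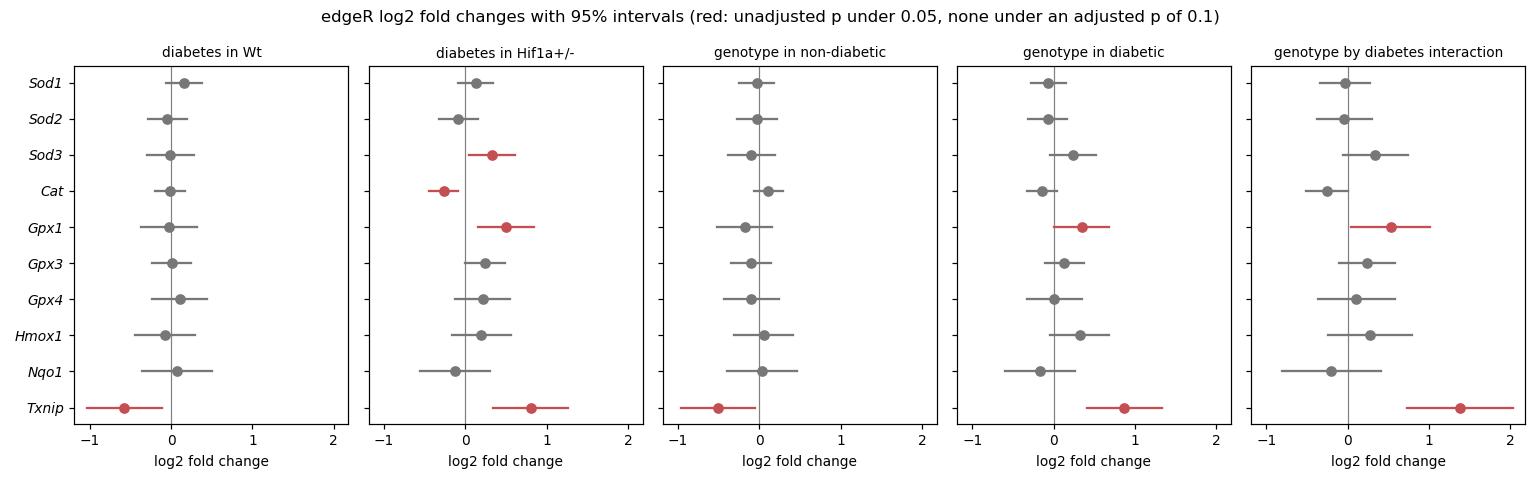
Log2 fold changes of the 10 genes (x axis) with 95% intervals from edgeR in 5 contrasts, with unadjusted p under 0.05 in red. Txnip is red in all 5 contrasts, below 0 for diabetes in Wt and above 0 for diabetes in Hif1a+/-, and of the 3 superoxide dismutases Sod3 alone is red, for diabetes in Hif1a+/- (0.33), with 0.34 in grey for the interaction.

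Macrophage markers moved with the same contrast as Gpx1. The 6 markers (Adgre1, Csf1r, Cd68, Mrc1, C1qa and C1qb) summed to 170.7, 183.7 and 245.8 CPM in Wt non-diabetic and 186.8, 213.5 and 312.6 CPM in Wt diabetic LVs. In Hif1a+/- LVs they summed to 199.7, 131.0 and 192.9 CPM after non-diabetic and 288.6, 264.0 and 432.3 CPM after diabetic pregnancy. In this contrast 6 of 6 were higher at an unadjusted p under 0.05 in edgeR's test, against 5.72% of all genes. DESeq2 called 3 of 6, against 1.44% of all genes with an adjusted p. For diabetes averaged over genotypes 5 of 6 were higher and DESeq2 called 2, against 11.3% (both directions) and 1.46% of all genes. For genotype in diabetic LVs, 1 of 6 (C1qb) was higher at an unadjusted p under 0.05, against 2.96% of all genes. Likewise 1 of 6 was higher for the interaction, against 2.52% of all genes in both directions. The sum was highest in exposed mutant replicate 77, which had the highest Gpx1 and the lowest Txnip of its group. Fibroblast markers summed to 1150 to 1209 CPM in unexposed and 1163 to 1519 CPM in exposed mutants, endothelial markers to 880.7 to 985.7 and 856.9 to 901.6 CPM, and lymphocyte markers to at most 1.498 CPM. For genotype in diabetic LVs, 2 of 5 fibroblast markers (Col1a1 and Col1a2) were higher at an unadjusted p under 0.05, against 2.96% of all genes. The 4 smooth muscle markers summed to 189.8 to 276.9 CPM in unexposed and 195.0 to 270.6 CPM in exposed mutants, but single markers were lower. For diabetes in Hif1a+/- LVs 1 of 4 (Myh11) was lower at an unadjusted p under 0.05 and past the threshold in DESeq2, against 6.28% and 1.44% of all genes. The median log2 difference of the 4 was −0.36. For genotype in diabetic LVs 3 of 4 (Myh11, Tagln and Cnn1) were lower at an unadjusted p under 0.05, against 2.39% of all genes, with a median of −0.65. For the interaction 2 of 4 (Myh11 and Tagln) were lower, against 2.52% of all genes in both directions. For genotype in non-diabetic LVs, 4 of 4 red cell markers tested were lower at an unadjusted p under 0.05, against 0.959% of all genes in both directions. Their sums were 7323, 490.7 and 704.9 CPM in Wt (replicates 25, 42 and 89) and 361.5 to 413.2 CPM in Hif1a+/- LVs. The size of this difference thus depended largely on replicate 25, and such markers vary together. The part of these cells in the Gpx1, Sod3 and Txnip differences was not tested, and in bulk LV tissue more cells of a type and more RNA per cell cannot be told apart. When the study counted cells stained for a macrophage marker, the number was significantly increased only in diabetes-exposed Wt LVs, not in exposed mutants.

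**Figure D4:**
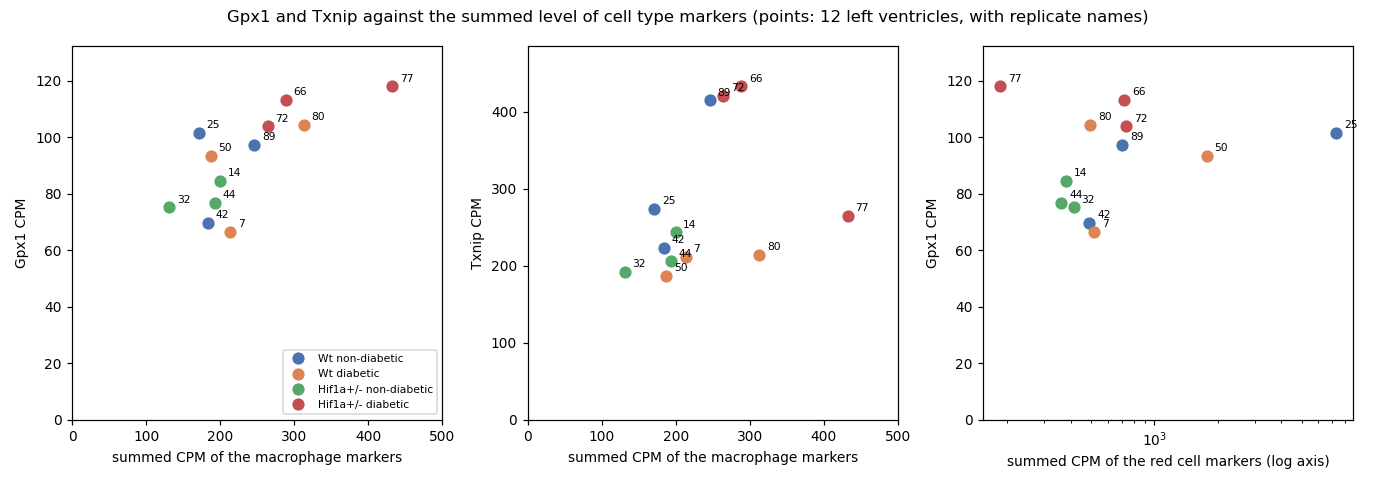
Level of Gpx1 or Txnip (y axis, CPM) against the summed CPM of the macrophage or red cell markers (x axis, logarithmic for red cells), 1 point per LV with its replicate name. The exposed mutants lie at 264.0 CPM or more of macrophage markers, Txnip is 264.4 CPM in replicate 77 where the markers reach 432.3 CPM, and Wt non-diabetic replicate 25 stands apart at 7323 CPM of red cell markers with Gpx1 inside the range of the others.

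None of the genes listed for the thioredoxin system and glutaredoxins passed a test. Of these 20 genes (thioredoxins, thioredoxin reductases, peroxiredoxins, methionine sulfoxide reductases and glutaredoxins), 0 passed an adjusted p of 0.1 in edgeR or DESeq2, and 0 passed an unadjusted p of 0.05, in any of the 8 contrasts. Txn1, the cytosolic thioredoxin that Txnip binds, had a mean of 80.7 ± 15.2, 91.9 ± 15.3, 79.6 ± 4.20 and 90.5 ± 6.70 CPM in Wt non-diabetic, Wt diabetic, Hif1a+/- non-diabetic and Hif1a+/- diabetic LVs (SD, n = 3). Of the 7 other alpha-arrestins and glucose-sensing factors, 0 passed an unadjusted p of 0.05 for diabetes in Wt, for diabetes in Hif1a+/- or for the interaction. For diabetes averaged over genotypes 2 of 7 were higher (Arrdc2, log2 0.54, and Arrdc3, log2 0.19), against 11.3% of all genes in both directions. For exposed mutants against unexposed Wt LVs 1 of 7 was higher (Arrdc3, log2 0.31), against 8.85% of all genes in both directions. The other 3 contrasts gave 0 of 7. Arrdc4, an alpha-arrestin also known as a target of MondoA and singled out after its values were seen, had group means between 18.6 ± 3.81 and 19.1 ± 2.00 CPM, a span smaller than its SD in any group.

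Of the 2 other glutathione peroxidases with enough counts (Gpx7 and Gpx8), 0 passed an unadjusted p of 0.05 in the 8 contrasts. Of the 21 genes of glutathione synthesis and glutathione transferases, 1 of 21 passed an unadjusted p of 0.05 for diabetes in Wt and 2 of 21 for diabetes in Hif1a+/- LVs, all higher, against 2.78% and 12.0% of all genes. The gene in Wt was Gsta3, a transferase for reactive aldehydes and steroids, with 7.28 ± 0.756 CPM in unexposed and 15.0 ± 2.07 CPM in exposed Wt LVs and with 6.35 ± 0.834 and 10.4 ± 3.39 CPM in Hif1a+/- LVs. Its log2 difference with diabetes was 1.03 (SE 0.22) in Wt and 0.69 (SE 0.22) in Hif1a+/- LVs, with adjusted p values of 1 and 0.299 in edgeR's test and of 0.0414 and 0.125 in DESeq2. Gsta3 was higher after diabetic pregnancy in both genotypes, and averaged over them DESeq2 gave an adjusted p of 0.000278 and edgeR 0.112.

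Of 23 further NRF2 regulators and targets, 0 passed an adjusted p of 0.1 in edgeR or DESeq2 in any contrast. For diabetes in Hif1a+/- LVs, 1 of 23 was higher (Pgd, an enzyme of the pentose phosphate pathway) and 4 of 23 were lower at an unadjusted p under 0.05 (Mafk, Aox1, Bach1 and Me1, the last 3 named after their values were seen), against 5.72% and 6.28% of all genes. The smallest p among them was that of Mafk, a small Maf partner of NRF2, with a log2 difference of −0.41 (SE 0.12, unadjusted p = 0.00479, adjusted p = 0.29 by edgeR). Of 9 genes of superoxide dismutase copper supply and mitochondrial redox balance, 0 passed an unadjusted p of 0.05 in any contrast.

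Of 19 genes of the HIF-1 pathway, 2 were lower and 0 higher at an unadjusted p under 0.05 for diabetes in Hif1a+/- LVs, against 6.28% and 5.72% of all genes. They were Kdm3a, a histone demethylase induced by HIF-1 (log2 −0.46, SE 0.13), and Pdk1, which restrains pyruvate oxidation (log2 −0.27, SE 0.09), with adjusted p values of 0.275 and 0.32 in edgeR's test. For exposed mutants against unexposed Wt LVs, 5 of 19 were lower and 0 higher at an unadjusted p under 0.05 (Kdm3a, Ddit4, Pdk1, Vegfa and Adm, the last 3 named after their values were seen), against 8.85% of all genes in both directions, and DESeq2 called Kdm3a (adjusted p = 0.0534). For genotype in diabetic LVs, 3 of 19 were lower and 1 (Hif1a) higher at an unadjusted p under 0.05, against 2.39% and 2.96% of all genes. The counts were the same for genotype averaged over pregnancies, against 2.69% of all genes in both directions. The median log2 difference of the 19 was −0.14 and −0.15 in these contrasts. For diabetes averaged over genotypes 3 of 19 were lower and 0 higher, against 11.3% of all genes in both directions. DESeq2 also called Hif1a itself, higher in Hif1a+/- LVs averaged over pregnancies (log2 0.43, adjusted p = 0.0314). A set of 16 genes, the glucocorticoid receptor and genes induced by it, was included because Txnip is known to respond to glucocorticoids. Of these, 2 were higher and 0 lower at an unadjusted p under 0.05 for diabetes in Hif1a+/- LVs, against 5.72% and 6.28% of all genes. Both are metallothioneins, which bind zinc and copper: Mt1 (log2 0.71, SE 0.24) and Mt2 (log2 0.92, SE 0.40), with adjusted p values of 0.316 and 0.4 by edgeR. In Wt LVs the only one of the 16 at an unadjusted p under 0.05 was Tsc22d3, the glucocorticoid-induced leucine zipper, which was higher after diabetic pregnancy by 0.49 (SE 0.10), where Txnip was lower. Averaged over genotypes, 3 of 16 were higher with diabetes at an unadjusted p under 0.05 (Tsc22d3, Mt1 and Cebpd, the last named after its values were seen), against 11.3% of all genes in both directions, and the median log2 difference of the 16 was 0.31. DESeq2 called Tsc22d3 (adjusted p = 0.0535) and Mt1 (adjusted p = 0.0926) there. For genotype in diabetic LVs, where Txnip was higher, 2 of 16 were lower and 0 higher, against 2.39% and 2.96% of all genes. For the interaction 1 of 16 was lower and 0 higher, against 2.52% of all genes in both directions.

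Across the 12 LVs, the peroxidases varied together. Of the 45 pairs of the 10 genes, 4 had a Pearson correlation of log2(CPM + 1) past an adjusted p of 0.1 in a permutation test with 100000 resamples: Sod1 with Gpx4 (r = 0.816, adjusted p = 0.03; rho = 0.853, adjusted p = 0.02), Gpx1 with Gpx3 (r = 0.813, adjusted p = 0.03; rho = 0.762, adjusted p = 0.063), Gpx3 with Gpx4 (r = 0.791, adjusted p = 0.035; rho = 0.881, adjusted p = 0.019) and Gpx1 with Gpx4 (r = 0.765, adjusted p = 0.035; rho = 0.811, adjusted p = 0.032). The unadjusted p values of these r were 0.00087, 0.0013, 0.0027 and 0.0031. Without the 2 LVs farthest from the median, r was 0.795, 0.703, 0.811 and 0.608. Over deviations from the group means it was 0.803, 0.715, 0.777 and 0.817. For pairs with Gpx4 these deviations came mostly from Wt LVs (SD 125.3 and 131.3 CPM, against 2.36 and 17.2 CPM in mutants). Sod1 and Gpx4 had the same order of LVs in both mutant groups, but Gpx4 in unexposed mutants spanned only 529.1 to 533.6 CPM, so its order there rests on small gaps. Gpx1 ran otherwise in exposed mutants, where replicate 72 had the lowest Gpx1 (103.9 CPM) but the highest Gpx3 (434.1) and Gpx4 (632.1). The number of pairs past an adjusted p of 0.1 was 1 without Wt non-diabetic replicate 42 and 8 without Wt diabetic replicate 50 or without Hif1a+/- non-diabetic replicate 14. Txnip was in none of the 4 pairs, and its highest r was 0.632, with Gpx3 (permutation test, unadjusted p = 0.028, adjusted p = 0.14).

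The genes whose levels followed Txnip most closely over the 12 LVs, of 12924 compared, were Rnf220 (r = 0.936), Mtfmt (0.887), Sqle (0.867), 1700008J07Rik (0.861) and Eefsec (0.859). For Gpx3 they were Cars2 (0.907), Aprt (0.896), Cnpy2 (0.88), Bloc1s2 (0.872) and Gpr180 (0.863). For Hmox1 they were Zkscan17 (0.854), Stx3 (0.831), Slitrk4 (0.83), Rbpj (0.819) and Helt (0.817). These are the highest of many values and are given as a description, with no test.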

How the data were processed

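LV RNA of 12 offspring, 3 per group, was sequenced as 3′-seq libraries. The authors trimmed reads with Trimmomatic, filtered out ribosomal and mitochondrial sequences, mapped what was left with STAR (version 2.5.2b) to GRCm38 and deposited whole-number read counts per gene from htseq-count, without normalization. The deposited normalized values were not used. Symbols and coordinates came from GENCODE M21 and were found for 46488 of 46983 identifiers. Reads aligned to several places (12.37% to 17.02% per library) were not counted on any gene.

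Counts were tested with edgeR's quasi-likelihood test (edgeR 4.0.16, R 4.3.3), with TMM scaling, the default filter (14706 of 27093 genes with a count kept), 1 mean per group, the 12 samples in 1 fit (8 residual degrees of freedom) and Benjamini-Hochberg adjustment over all genes tested. The threshold of 0.1 was the study's. The biological coefficient of variation was 13.7%. In edgeR's test a p value sets a difference against the spread between animals. That spread was estimated from all groups together, with 3 animals per group, so animals outside a contrast also bear on its p value. Alternatives were DESeq2 1.42.0, limma-voom with sample weights (limma 3.58.1), other scalings and filters, the groups compared alone, and leaving out each sample. The DESeq2 fits without 1 sample were chosen after seeing the data. The steps were tested on simulated data. The 10 genes, the related gene lists and the markers were chosen with earlier results of these data known. All 10 genes are named. A gene of another list is named where it passed the threshold, had 1 of the 2 smallest p values of its list in a contrast described, or served as a check, and for Txnip, Gpx3 and Hmox1 the 5 genes with the highest r are named among tested genes with a mean of at least 1 CPM. Genes said to be named or singled out after their values were seen fall outside this rule. Correlations were computed on log2(CPM + 1) with scipy 1.17.1.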

Additional observations from a re-analysis of the deposited data

Results flagged for a closer look

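The difference of Txnip between diabetic and non-diabetic pregnancy was 1.38 higher on the log2 scale in Hif1a+/- than in Wt LVs. It stood out because all 3 exposed Wt LVs lay below the unexposed Wt LVs while all 3 exposed mutants lay above the unexposed mutants, and because the test of the difference itself, the interaction in edgeR's quasi-likelihood fit, gave an unadjusted p of 0.000486. The adjusted p over all genes was 0.998, so that it did not pass the threshold. The Txnip difference in Wt LVs shrank to −0.28 without replicate 89. The gaps between groups were narrow at Wt replicate 42 and mutant replicate 77. How many of all genes separate in this way was not counted.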

How the results depend on the processing

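Counts of the 10 genes past an adjusted p of 0.1 depended on the tool. Against 0 with edgeR in every contrast, the count for diabetes in Hif1a+/- LVs was 1 with DESeq2 (Txnip), 3 with limma-voom and sample weights (Cat, Gpx1 and Txnip), 2 without a filter on low counts (Gpx1 and Txnip) and 1 with only the groups compared (Gpx1). Over all genes these fits called 201 of 13951, 937 of 14706, 592 of 27093 and 101 of 14272. The count of the 10 was 1 (Txnip) for genotype in diabetic LVs with DESeq2 and without the filter, and 1 (Txnip) without the filter for diabetes in Wt, genotype in non-diabetic LVs and the interaction, where that fit called 129, 33 and 78 of all genes, and 220 for genotype in diabetic LVs, against 24 with DESeq2. Leaving out each sample in edgeR gave 0 in every contrast. In DESeq2 the count ranged from 0 to 2 for diabetes in Hif1a+/-, from 0 to 1 for genotype in diabetic LVs and from 0 to 1 for the interaction. The DESeq2 call of Txnip for diabetes in Hif1a+/- was lost without Hif1a+/- diabetic replicate 66 or 72, Hif1a+/- non-diabetic replicate 32 or 44, or Wt diabetic replicate 80, and its call for genotype in diabetic LVs without Hif1a+/- diabetic replicate 66 or 72 or any 1 of the 3 Wt diabetic LVs. Correlated pairs ranged from 1 to 8 with a sample left out. The cause of these differences was not tested. Of 261 refits of the fold changes described with their p values, 0 changed sign, and of 1229 refits of the others 74 did, all of them at an unadjusted p of 0.305 or more. No pairing or block by litter was used. The titles share no animal number between groups and do not name the dam or litter. Animals were therefore treated as independent, though some may have shared a dam. With 3 animals per group, differences of the size seen for Gpx3 and Gpx4 were not resolved.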
